A study of Homo sapiens with 6 samples.

Results

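Complement components and regulators were followed in TFK1 cells, a human cell line from an extrahepatic bile duct carcinoma, with and without overexpression of the ubiquitin ligase STUB1. The genes were chosen by name, with earlier results of these data known, as the table's rows for C1R, C1S, C3, CFB, C5, CFI, CD46, CD55 and CD59. All 9 of 9 named genes were listed among the 23569 genes of the table, and all 9 were among the 15353 genes tested, meaning that their mean over the 6 libraries reached 0.1 FPKM (fragments scaled to gene length and library total). RNA was sequenced from TFK1 cells carrying the lentiviral negative control (oeNC, n = 3) and from TFK1 cells carrying the lentiviral STUB1 construct (oeSTUB1, n = 3). Both groups went through the same lentiviral transduction and puromycin selection, the labels give no further treatment, and as far as the methods tell each group was 1 stably transduced cell population. Nothing in the sources says that the libraries of a group came from separate cultures, so the p-values measure only the spread between these samples, which may be technical.

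Complement is a cascade of secreted proteases and binding proteins that tags surfaces for removal or lyses them. In the classical pathway the proteases C1r and C1s cleave further components to form an enzyme that splits C3, and in the alternative pathway C3b joins factor B to form another such enzyme, which amplifies the reaction and leads on to C5 and the membrane attack complex. Host cells hold it in check with factor I, which degrades C3b with the help of cofactors such as CD46, with CD55, which makes the C3-splitting enzymes fall apart, and with CD59, which blocks the last step of pore assembly. The liver makes most of the plasma proteins, but epithelial cells also make several of them, and the transcription of C3 and CFB is known to respond to inflammatory cytokines.

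Promoter stretches of CFB, C1R and CD59 are shown first, since these genes were higher in oeSTUB1 cells, with letters taken from RefSeq on GRCh38.p14. RefSeq windows, 250 bases before to 50 after a transcription start, were matched by symbol for 7 of the 9 genes, with 13 windows in all, and none is shown for C1S and C3. Each window was searched on both strands for the GC box GGGCGG, the palindrome TTCNNNGAA of STAT-type sites, GAAANNGAA of interferon-type sites, the cyclic AMP element TGACGTCA, the TATA box TATAAA and the NF-kB consensus. Capitals mark matches, and none of the matches printed overlap each other. Stretches are printed only from windows that held a match. The 3 CFB stretches lie on the plus strand at chr6:31945945-31945974, chr6:31945983-31946011 and chr6:31946052-31946081, and only short stretches are given because an exon of a longer annotated CFB transcript covers this window. The C1R stretch is the minus strand of chr12:7091894-7092143, before the second of the RefSeq starts, and the CD59 stretch is the minus strand of chr11:33736480-33736729, before the first.
CFB, bases -150 to -121: acttctgcagtTTCTGTTTCcttgactggc
CFB, bases -112 to -84: GGGGCCCTCCcgcttggatgTTCCGGGAA
CFB, bases -43 to -14: agaacacagattgTATAAAaggctgggggc
C1R, bases -250 to -1: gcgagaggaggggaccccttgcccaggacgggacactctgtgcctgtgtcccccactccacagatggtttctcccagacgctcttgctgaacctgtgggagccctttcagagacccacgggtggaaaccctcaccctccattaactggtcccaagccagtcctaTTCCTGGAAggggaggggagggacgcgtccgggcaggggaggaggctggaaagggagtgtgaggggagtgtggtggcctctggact
CD59, bases -250 to -1: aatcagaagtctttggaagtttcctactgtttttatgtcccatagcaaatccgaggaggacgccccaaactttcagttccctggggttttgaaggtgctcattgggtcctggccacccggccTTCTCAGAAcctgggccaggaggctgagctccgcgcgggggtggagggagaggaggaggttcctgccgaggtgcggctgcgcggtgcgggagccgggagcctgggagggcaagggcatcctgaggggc

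The CFB window held 4 different motifs, an NF-kB consensus match at -112 to -103, TTCNNNGAA at -92 to -84, GAAANNGAA on the minus strand at -139 to -131 and TATAAA at -30 to -25. Of the 35116 RefSeq windows of the same length, 7.66% held TTCNNNGAA, 11.3% the NF-kB consensus, 8.11% GAAANNGAA and 11.5% TATAAA. TTCNNNGAA and the NF-kB consensus were both present in 0.683%. The share of this pair was not among those planned, and whether the motifs meet more often than their single shares imply was not tested. TTCNNNGAA also lay at -86 to -78 in the second C1R window and at -128 to -120 in the first CD59 window. The second CD59 window overlaps the first and holds the same site at -184 to -176. GGGCGG, present in 44.95% of windows, was found in windows of CD46, CD55 and CD59, and TGACGTCA, present in 1.85%, was found in none of the 13 windows. No motif was found in the windows of C5 and CFI, in the first window of C1R or in windows 3 and 4 of CD59. CpG dinucleotides numbered 7 in the CFB window, 10 and 8 in the C1R windows, 2 in the CFI window, 25 in each CD46 window and 19 in the CD55 window, against a median of 14 over all windows. The first C5 window held 33 and the second 1, and the 4 CD59 windows held 18, 22, 1 and 1. These matches describe the letters in the windows and say nothing of factor binding.

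STUB1 itself, at chr16:680224-682870 on the plus strand, was at 32.9, 33.0 and 30.9 FPKM in oeNC replicates 1 to 3 and at 61.4, 75.0 and 61.9 FPKM in oeSTUB1 replicates 1 to 3. All oeSTUB1 libraries were above all oeNC libraries. The log2 fold change of STUB1, on the log2(FPKM + 0.1) scale used for every fold change here, was 1.03 (limma with Benjamini-Hochberg adjustment over 15353 genes, adjusted p = 0.000642), and without oeSTUB1 replicate 2, the highest library, it was 0.93. Library totals recovered from the FPKM steps lay between 33106564 and 36744521 fragments. Fragments of the 9 complement genes took 0.0824% to 0.0874% of an oeNC library and 0.114% to 0.143% of an oeSTUB1 library. oeSTUB1 replicate 2 stood apart from the other libraries of its group, its fragments differing from theirs by a chi-square of 82.6 and 76.7 per degree of freedom, where every other pair of replicates lay between 3.48 and 10.4. Each gene is therefore also given without that library.

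Of the 9 complement genes, 5 were higher in oeSTUB1 cells at an adjusted p-value under 0.05 (limma), namely C1R, C1S, C3, CFB and CD59, against 7.01% of all tested genes. None of the 9 was lower by limma at an adjusted p-value under 0.05 or by limma-voom on the recovered fragments, against 6.59% of all tested genes by limma, and 1 of the 9, CFI, was lower at an unadjusted p-value under 0.05, as were 13.7% of all tested genes. C1R, C3 and CFB also passed an absolute log2 fold change over 1 in the upward direction, which 2.79% of all tested genes did. The groups did not overlap for 6 of the 9, against 38.8% of all tested genes, with oeSTUB1 above for 5 (21.5% of all tested genes) and below for CFI (17.3%). The median log2 fold change was 0.92 over the 9 genes and 0.02 over all 15353 tested genes. Because the 9 genes were chosen with earlier results of these data known, these shares and medians only describe them. They are no test of complement genes as a set. Over all tested genes, 1076 were higher, a number that went to 2274 without oeSTUB1 replicate 2 and to 477 without oeNC replicate 2. By size of the rise among all tested genes, CFB stood at rank 45, C1R at 93, C3 at 214, C1S at 485 and CD59 at 548. Without oeSTUB1 replicate 2 the same 5 genes were higher and none of the 9 was lower by limma. These are bulk libraries, in which more cells with a transcript and more transcript per cell cannot be told apart.

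**Figure D1:**
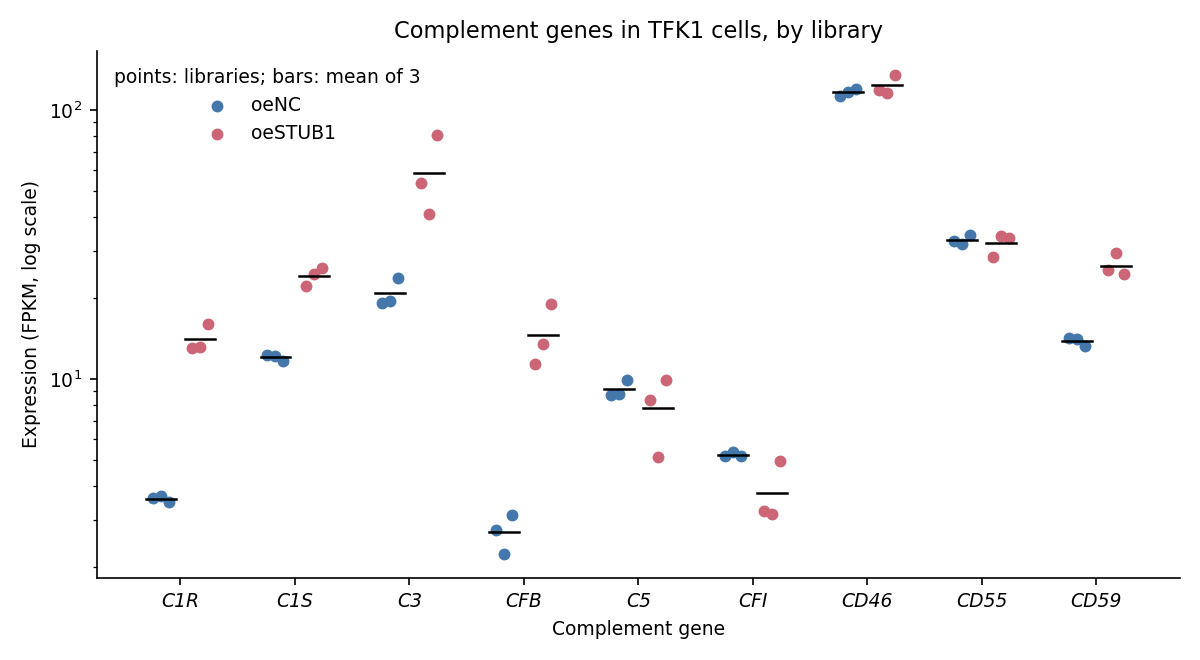
FPKM of the 9 complement genes (log axis) in each of the 3 oeNC and 3 oeSTUB1 libraries, with points for libraries and bars for the mean of 3. The groups are separated upward for C1R, C1S, C3, CFB and CD59, separated downward for CFI, and overlap for C5, CD46 and CD55.

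The plot of FPKM by library sets the genes side by side on 1 scale per gene length. Values of CD46 lie at the top, those of CFB and C1R move from the bottom of the plot in oeNC cells to the middle in oeSTUB1 cells, and the 3 oeSTUB1 points of C3 are the most spread of the genes that rose.

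C1R encodes the protease that activates C1s within the C1 complex. It lies at chr12:7080199-7092607 on the minus strand, and its expression was 3.61, 3.68 and 3.48 FPKM in oeNC cells and 13.04, 13.1 and 16.01 FPKM in oeSTUB1 cells. The oeNC libraries were close together and every oeSTUB1 library lay far above them. The mean went from 3.59 ± 0.1004 to 14.05 ± 1.70 FPKM (SD, n = 3 each), a ratio of 3.91, and the log2 fold change was 1.93 (SE 0.10, 95% interval 1.69 to 2.17, limma adjusted p = 7.88e-05). It rested on 327, 333 and 334 fragments in oeNC and 1172, 1131 and 1427 in oeSTUB1 libraries, and without oeSTUB1 replicate 2 the log2 fold change of C1R was 1.98. The level of C1R moved from the 45.4 percentile of tested genes to the 75.7 percentile. C1R shares 672 exonic bases on its strand with C1RL, which encodes a related protease and had lower values in oeSTUB1 cells, and fragments in the shared bases could be assigned to either gene.

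C1S encodes the protease that C1r activates and that cleaves C4 and C2. It lies at chr12:6988259-7071032 on the plus strand, in the same region as C1R, and was at 12.3, 12.2 and 11.7 FPKM in oeNC cells and 22.1, 24.5 and 25.9 FPKM in oeSTUB1 cells. The groups did not overlap, and the lowest oeSTUB1 library was well above the highest oeNC library. The mean of C1S went from 12.1 ± 0.334 to 24.2 ± 1.89 FPKM (SD, n = 3 each) and the log2 fold change was 0.99 (SE 0.084, 95% interval 0.80 to 1.19, limma adjusted p = 0.000402), against 0.98 without oeSTUB1 replicate 2. C1S shares 229 exonic bases with EMG1 on its strand, and EMG1, a ribosome biogenesis factor, was at 10.1 and 11.8 FPKM on average in oeNC and oeSTUB1 cells (log2 fold change 0.22, limma adjusted p = 0.165).

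The proteases C1R and C1S are built into the C1 complex in equal numbers, and the ratio of their FPKM within a library was 0.293, 0.302 and 0.298 in oeNC cells and 0.589, 0.533 and 0.619 in oeSTUB1 cells. The ratio was nearly constant among the oeNC libraries and higher in every oeSTUB1 library, with C1S the higher of the pair throughout. Its mean was 0.298 ± 0.00427 in oeNC and 0.580 ± 0.0435 in oeSTUB1 (SD, n = 3 each), given as a description without a test.

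C3 encodes the central component on which all activation pathways converge. It lies at chr19:6677704-6730562 on the minus strand and was at 19.1, 19.4 and 23.8 FPKM in oeNC cells and 53.4, 40.9 and 81.0 FPKM in oeSTUB1 cells. Every oeSTUB1 library was above every oeNC library, although the oeSTUB1 libraries differed widely among themselves, with replicate 2 the lowest and replicate 3 the highest. The mean of C3 went from 20.8 ± 2.63 to 58.5 ± 20.5 FPKM (SD, n = 3 each) and the log2 fold change was 1.44 (SE 0.23, 95% interval 0.91 to 1.96, limma adjusted p = 0.00585). Without oeSTUB1 replicate 2 the log2 fold change of C3 was 1.66, and leaving out each library in turn gave values from 1.17 to 1.66 with a largest adjusted p of 0.0302 (limma). In oeSTUB1 cells C3 stood at the 94.1 percentile of tested genes, from the 83.5 percentile in oeNC cells.

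CFB encodes factor B, the protease subunit of the alternative pathway convertase. It lies at chr6:31945650-31952084 on the plus strand and was at 2.73, 2.24 and 3.11 FPKM in oeNC cells and 11.4, 13.5 and 18.9 FPKM in oeSTUB1 cells. It was the lowest of the 9 genes in oeNC cells, and its lowest oeSTUB1 library was several times its highest oeNC library. The mean of CFB went from 2.69 ± 0.438 to 14.6 ± 3.91 FPKM (SD, n = 3 each), a ratio of 5.42 and a log2 fold change of 2.37 (SE 0.20, 95% interval 1.92 to 2.83, limma adjusted p = 0.000381). It rested on 235, 192 and 283 fragments in oeNC and 970, 1105 and 1603 fragments in oeSTUB1 libraries, and the log2 fold change without oeSTUB1 replicate 2 was 2.42. The CFB promoter stretches printed above carry the NF-kB consensus and TTCNNNGAA matches, and whether either is used in these cells was not tested. CFB shares 23 exonic bases with C2 on its strand and 2249 with the annotated gene AL645922.1, which is not among the genes analysed here.

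**Figure D2:**
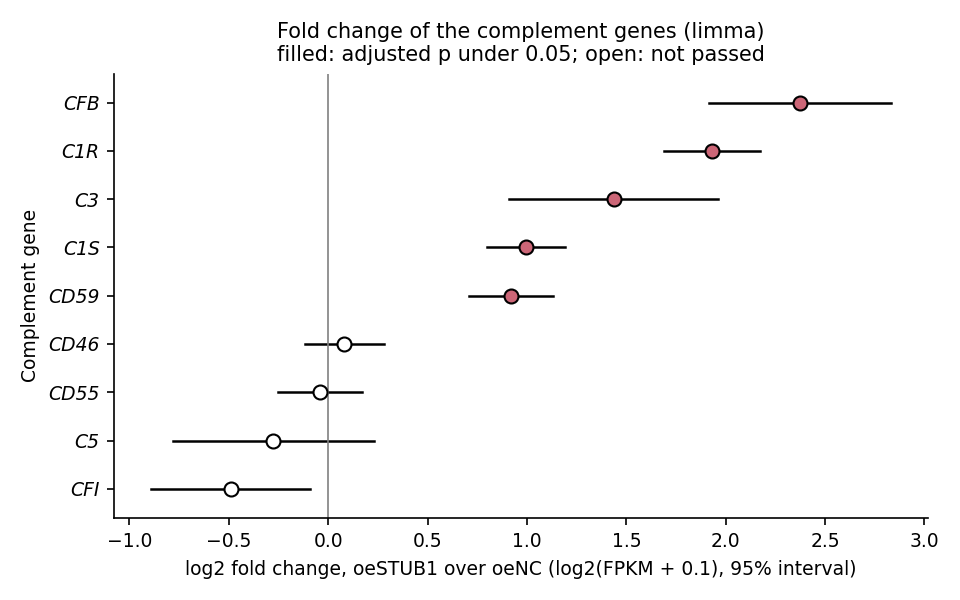
Log2 fold change of oeSTUB1 over oeNC on the log2(FPKM + 0.1) scale (horizontal axis) for the 9 complement genes, with 95% intervals from limma and filled points for an adjusted p under 0.05. CFB has the highest estimate at 2.37 and CFI the lowest at -0.49, and the intervals of C5, CD46 and CD55 span 0.

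The plot of fold changes with their intervals shows how precisely each is known. The interval of C3 is wide and reaches below a log2 fold change of 1, that of C1R is narrow, and the interval of CFI lies just below 0 without passing the adjusted test.

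C5 encodes the component whose cleavage starts assembly of the membrane attack complex. It lies at chr9:120952335-121050276 on the minus strand and was at 8.75, 8.80 and 9.92 FPKM in oeNC cells and 8.34, 5.13 and 9.95 FPKM in oeSTUB1 cells. The groups overlapped, and oeSTUB1 replicate 2 alone was far below the other libraries. The log2 fold change of C5 was -0.28 (SE 0.22, 95% interval -0.78 to 0.23, limma adjusted p = 0.441), and without oeSTUB1 replicate 2 it was -0.01. The interval leaves room for a change of C5 in either direction.

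The ratio of C3 to C5 within a library was 2.19, 2.21 and 2.40 in oeNC cells and 6.41, 7.98 and 8.15 in oeSTUB1 cells, with means of 2.26 ± 0.119 and 7.51 ± 0.958 (SD, n = 3 each, no test). The groups did not overlap in this ratio, and oeSTUB1 replicate 2, low in both genes, lay between the other oeSTUB1 libraries.

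CFI encodes factor I, the protease that inactivates C3b. It lies at chr4:109740694-109802179 on the minus strand and was at 5.17, 5.37 and 5.15 FPKM in oeNC cells and 3.22, 3.14 and 4.96 FPKM in oeSTUB1 cells. Each oeSTUB1 library was below each oeNC library, with replicates 1 and 2 well under and replicate 3 just under the oeNC values. The mean of CFI was 5.23 ± 0.119 FPKM in oeNC against 3.77 ± 1.03 FPKM in oeSTUB1 cells (SD, n = 3 each), and the log2 fold change was -0.49 (SE 0.17, 95% interval -0.89 to -0.09), which did not pass the test (limma adjusted p = 0.102). Without oeSTUB1 replicate 3 the log2 fold change of CFI was -0.70 and passed (limma adjusted p = 0.00920), and without oeSTUB1 replicate 2 it was -0.38 and did not (limma adjusted p = 0.126). CFI shares 1562 exonic bases on its strand with the annotated gene AC126283.2.

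The ratio of C3 to CFI, a component to the protease that inactivates its product, was 3.70, 3.62 and 4.62 in oeNC cells and 16.6, 13.1 and 16.3 in oeSTUB1 cells. The means were 3.98 ± 0.558 and 15.3 ± 1.96 (SD, n = 3 each, no test). Every oeSTUB1 library was above every oeNC library in this ratio. This follows from the separation of C3 upward and of CFI downward and adds nothing to them.

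The membrane regulators differed among themselves. CD59 encodes the lipid-anchored inhibitor of the membrane attack complex, lies at chr11:33703010-33736491 on the minus strand, and was at 14.3, 14.1 and 13.2 FPKM in oeNC cells and 25.3, 29.4 and 24.5 FPKM in oeSTUB1 cells. The groups of CD59 were well separated. The mean went from 13.9 ± 0.539 to 26.4 ± 2.61 FPKM (SD, n = 3 each) and the log2 fold change was 0.92 (SE 0.092, 95% interval 0.71 to 1.13, limma adjusted p = 0.000790), against 0.84 without oeSTUB1 replicate 2. CD59 shares 629 exonic bases on its strand with the annotated gene AL049629.2.

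CD46 encodes a membrane cofactor for factor I, lies at chr1:207752057-207795513 on the plus strand, and was at 113, 117 and 119 FPKM in oeNC cells and 119, 116 and 135 FPKM in oeSTUB1 cells. The groups overlapped. The log2 fold change of CD46 was 0.08 (95% interval -0.12 to 0.28, limma adjusted p = 0.571), and it turned to -0.027 under quantile normalization. Without oeSTUB1 replicate 2 it was 0.12. CD55 encodes decay-accelerating factor, lies at chr1:207321376-207386804 on the plus strand, and was at 32.4, 31.8 and 34.3 FPKM in oeNC cells and 28.4, 34.1 and 33.4 FPKM in oeSTUB1 cells. The groups overlapped here too, with oeSTUB1 replicate 1 the lowest of all 6 libraries. The log2 fold change of CD55 was -0.04 (95% interval -0.25 to 0.17, limma adjusted p = 0.794), and without oeSTUB1 replicate 1 it turned to 0.039, while without oeSTUB1 replicate 2 it was -0.09. The intervals limit the size of a change of CD46 or CD55 in either direction, and do not show that the groups were equal.

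The summed FPKM of CD46, CD55 and CD59 was 160, 163 and 167 in oeNC cells and 173, 179 and 193 in oeSTUB1 cells, with means of 163 ± 3.53 and 182 ± 10.3 (SD, n = 3 each, no test). CD59 made up 8.92%, 8.66% and 7.94% of that sum in oeNC cells and 14.7%, 16.4% and 12.7% in oeSTUB1 cells. CD46 made up most of the sum in every library, and the share of CD59 was higher in every oeSTUB1 library than in every oeNC library.

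**Figure D3:**
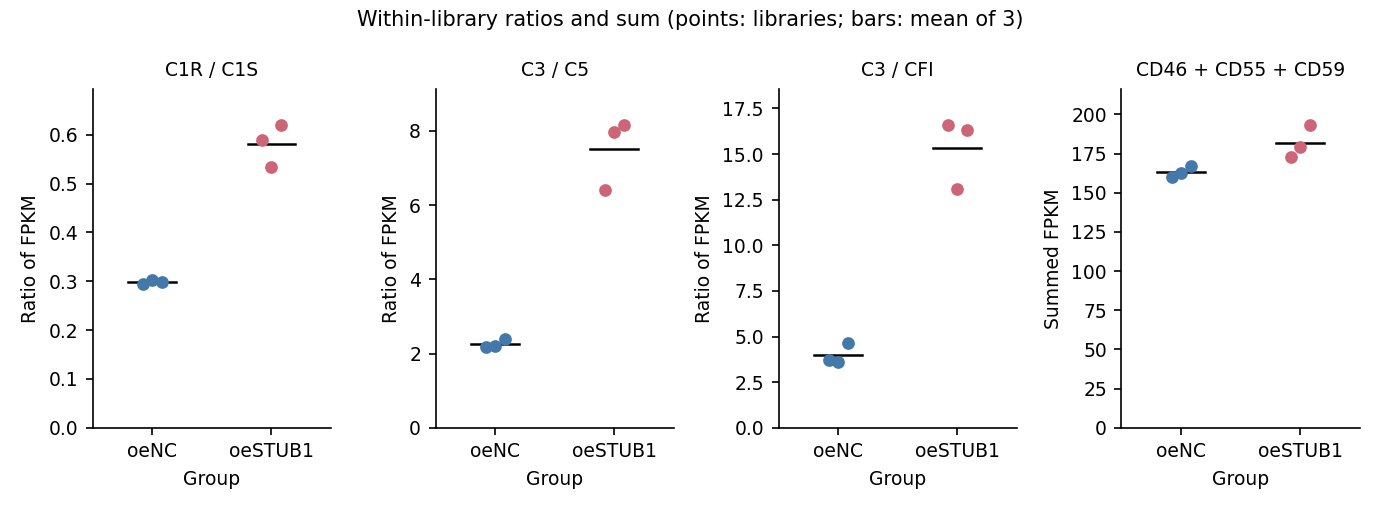
Ratios of FPKM within a library for C1R over C1S, C3 over C5 and C3 over CFI, and the summed FPKM of CD46, CD55 and CD59, in the 3 oeNC and 3 oeSTUB1 libraries (vertical axes start at 0), with points for libraries and bars for the mean of 3. The means go from 0.298 to 0.580, from 2.26 to 7.51, from 3.98 to 15.3 and from 163 to 182.

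The plot of ratios takes each library as its own reference, so that a difference in library total has no part in the 3 ratios. The oeSTUB1 points lie above the oeNC points in each panel, by a wide gap in the ratios and by a small one in the sum.

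The order of the levels in FPKM differed between the groups. In oeNC cells it was CD46, CD55, C3, CD59, C1S, C5, CFI, C1R and CFB, from high to low, and no neighbours in that order overlapped over their 3 libraries. In oeSTUB1 cells it was CD46, C3, CD55, CD59, C1S, CFB, C1R, C5 and CFI. There CD55 and CD59, CD59 and C1S, and CFB and C1R overlapped and could not be put in order beyond their spread. C3 thus stood above CD55 in oeSTUB1 cells and below it in oeNC cells, and CFB and C1R stood above C5 and CFI in oeSTUB1 cells and below them in oeNC cells.

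For each gene that rose, the tested genes with the most similar profile were found as those with the smallest root mean square difference of log2(FPKM + 0.1) over the 6 libraries, each gene centred on its own mean, searched over the 11374 tested genes that averaged 1 FPKM or more. Nearest to C3 were TNFAIP3 at 0.143 and CSF1 at 0.173, the first an inhibitor of NF-kB signalling and the second a macrophage growth factor. Nearest to C1R were LGALS3BP at 0.130, a secreted glycoprotein, and HAS3 at 0.131, a hyaluronan synthase. Nearest to C1S were COL18A1 at 0.0601, a basement membrane collagen, and C1orf116 at 0.0799. Nearest to CFB were the chemokine CXCL1 at 0.205 and the keratin KRT19 at 0.207. The difference is not scaled to the size of a gene's own change, so it does not rank likeness between the genes that rose. Nearest to CD59 were STUB1 at 0.0587 and CYB561 at 0.0682. This measure takes in the difference between the groups as well as the spread within them, and all its points come from the same libraries.

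The rest of the complement system was read from lists written with earlier results of these data known. Over the lists of the classical and lectin, alternative, terminal, membrane regulator, soluble regulator and receptor genes, 51 of the 62 genes reported here were in the table and 29 were tested, 6 higher, 2 lower and 21 not passed (limma). With the 9 genes above left out, 20 were tested, 1 was higher (THBD), 2 were lower (CLU and C5AR1) and 17 did not pass, and the median log2 fold change of these 20 was -0.09. The shares among these other complement genes are thus 1 of 20 higher and 2 of 20 lower, beside 7.01% higher and 6.59% lower over all tested genes. Without oeSTUB1 replicate 2 the lower genes were 4, with C8G and C1QBP besides CLU and C5AR1, and without each oeNC library CLU was lost and 1 remained.

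Of the classical and lectin list, 5 of 18 genes were tested, and the 3 besides C1R and C1S did not pass. C1RL, a protease related to C1r, was at 16.9 ± 0.502 FPKM in oeNC against 14.2 ± 1.94 FPKM in oeSTUB1 cells (SD, n = 3 each, log2 fold change -0.25, limma adjusted p = 0.158). C2, C4A and C4B, the substrates of C1s, were below the filter of 0.1 FPKM, and C4A and C4B are near-identical copies whose reads cannot be separated with certainty. Of the alternative pathway list all 4 genes were tested. CFD, the protease factor D that cleaves factor B, was at 32.8, 32.4 and 33.5 FPKM in oeNC against 26.5, 43.0 and 39.8 FPKM in oeSTUB1 cells, which overlapped (log2 fold change 0.12, limma adjusted p = 0.686). CFP, properdin, the stabiliser of the alternative convertase, had a log2 fold change of -0.21 (limma adjusted p = 0.632). Of the terminal list 2 of 7 genes were tested, C5 and C8G, and C8G had a log2 fold change of -0.92 that did not pass (limma adjusted p = 0.0762) at 0.0988 to 0.494 FPKM. Over the 15 other fits that tested it, the log2 fold change of C8G ran from -1.29 to -0.26, the smallest at a pseudocount of 1, and it passed with the lowess correction for gene length and without oeSTUB1 replicate 2.

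Among the regulators other than the 9 genes, THBD, the membrane protein thrombomodulin, which also favours the inactivation of C3b, rose from 0.139 ± 0.0430 to 0.690 ± 0.0977 FPKM (SD, n = 3 each), on 16, 16 and 28 fragments in oeNC and 99, 78 and 107 in oeSTUB1 libraries (log2 fold change 1.73, limma adjusted p = 0.00197). Its log2 fold change depended on the pseudocount, with 0.57 at a pseudocount of 1 and up to 2.31 in the fit of the recovered fragments, and it passed in all 15 other fits that tested it. It stayed a low-level gene in both groups. CLU, clusterin, a chaperone that binds the membrane attack complex, was at 257, 254 and 272 FPKM in oeNC cells and at 159, 205 and 178 FPKM in oeSTUB1 cells. The groups of CLU did not overlap, and its log2 fold change was -0.54 (limma adjusted p = 0.0151), a call that was lost without any 1 of the 3 oeNC libraries (largest limma adjusted p = 0.0756). C5AR1, the receptor for C5a, was at 2.68, 3.04 and 3.10 FPKM in oeNC against 1.45, 1.53 and 1.24 FPKM in oeSTUB1 cells, with a log2 fold change of -1.02 (limma adjusted p = 0.00222). Among the remaining soluble regulators and binding proteins, VTN, C4BPA, C1QBP and CALR did not pass, with log2 fold changes of 0.07, 0.42, -0.06 and 0.18.

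Genes on the list of inputs to complement genes moved in both directions. The list covers receptors and transcription factors of the interleukin 6, interleukin 1, TNF and interferon-gamma pathways. It also holds HNF4A, a tissue factor and not a part of those pathways, which is counted among the lower genes. On this list 23 were tested, 5 were higher, 3 lower and 15 did not pass (limma), beside 7.01% higher and 6.59% lower over all tested genes. RELB, an NF-kB subunit, rose from 4.10 ± 0.434 to 6.99 ± 0.742 FPKM (SD, n = 3 each, log2 fold change 0.76, limma adjusted p = 0.00605). IRF1, a factor induced by interferon-gamma, rose with a log2 fold change of 0.79 (limma adjusted p = 0.0146), and STAT3, the main factor of interleukin 6 signalling, with 0.59 (limma adjusted p = 0.0121). MYD88, an adaptor of the interleukin 1 receptor, and CEBPD, a factor of the acute phase, were higher with log2 fold changes of 0.48 and 0.53.

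HNF4A, a factor of liver and gut epithelium, fell from 10.8 ± 0.658 to 5.20 ± 0.808 FPKM (SD, n = 3 each, log2 fold change -1.05, limma adjusted p = 0.00182). IL6R and IL1R1, the receptors of interleukin 6 and interleukin 1, were lower with log2 fold changes of -0.80 and -0.61. The calls of RELB and HNF4A held in all 16 other fits, while those of IL6R, IL1R1 and CEBPD were each lost in 7 of the 16, among them the fit without any 1 oeNC library. MYD88 lost its call in 5 of the 16 (without oeNC replicate 1 or 3, without oeSTUB1 replicate 1 or 3 and with a replicate block), STAT3 in 2 (without oeNC replicate 1 or 3) and IRF1 in 2 (without oeNC replicate 1 or 2).

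Of 18 listed acute phase proteins outside complement, 12 were tested, 3 were higher, 2 lower and 7 did not pass, beside the same 7.01% and 6.59% over all tested genes. SAA1, serum amyloid A, was at 0.607, 0.477 and 1.15 FPKM in oeNC against 2.14, 2.77 and 3.56 FPKM in oeSTUB1 cells (log2 fold change 1.84, limma adjusted p = 0.00684), and it has the close copy SAA2, with which reads may be shared. It passed in all 16 other fits, with log2 fold changes from 1.14 at a pseudocount of 1 to 2.17 without oeNC replicate 3. LCN2, an iron-scavenging lipocalin, was at 8.08, 9.64 and 13.8 FPKM in oeNC against 25.7, 30.7 and 53.3 FPKM in oeSTUB1 cells (log2 fold change 1.75, limma adjusted p = 0.00684). SERPINA3, a protease inhibitor, was higher with a log2 fold change of 1.07 (limma adjusted p = 0.00406). Each of these 3 genes had oeSTUB1 libraries above all oeNC libraries, as did 21.5% of all tested genes. Replicate 3 was their highest oeSTUB1 library, as for C1R, C1S, C3 and CFB. It was also the highest for C5, CFI and CD46, which did not pass, and for FGB and FGG, while for CD59 it was the lowest. FGB and FGG, fibrinogen chains, were lower with log2 fold changes of -0.64 and -0.46 (limma adjusted p = 0.0106 and 0.0274), and both calls were lost without oeNC replicate 1 or 2, that of FGG also without oeNC replicate 3, with a replicate block and with a prior that had no trend.

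**Figure D4:**
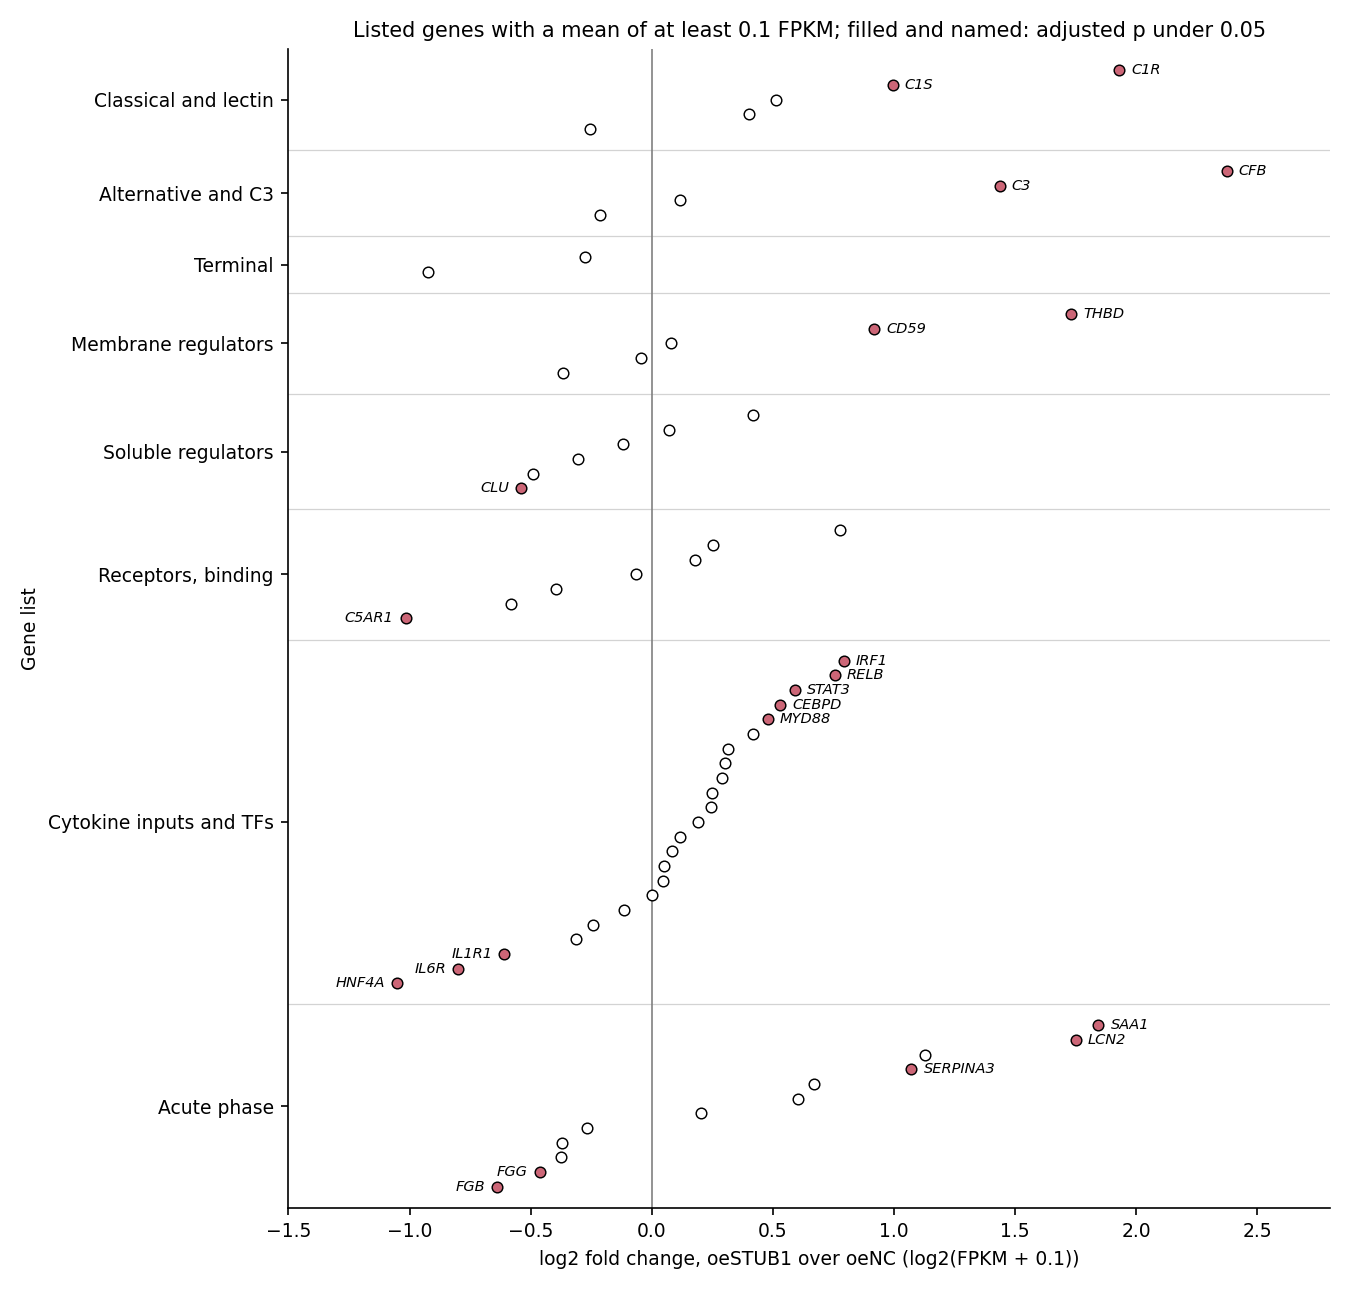
Log2 fold change of oeSTUB1 over oeNC on the log2(FPKM + 0.1) scale (horizontal axis) for the tested genes of 8 lists reported here (rows), with filled and named points for an adjusted p under 0.05 (limma). The points of C1R, C1S, C3, CFB and CD59 lie to the right within their lists, and other genes of the same lists lie on both sides of 0.

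The plot of the lists places the 9 genes among the rest of the complement system. Filled points to the left are CLU and C5AR1 among complement genes, and IL6R, IL1R1, HNF4A, FGB and FGG on the lists of inputs and acute phase genes.

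Markers of cell types were read beside these results, and their part in them was not tested. Of the 9 biliary epithelial markers reported here 8 were tested, 1 was higher and 5 were lower, beside 7.01% and 6.59% over all tested genes, and their summed level was 7534 to 8126 FPKM in oeNC against 4805 to 6366 FPKM in oeSTUB1 libraries. KRT8 and KRT18 were the main part of that sum, and their calls were lost in 7 of the 16 other fits, among them the fit without any 1 oeNC library. Of the other 3 lower markers SPP1 lost its call in 6 fits, the same among them, and EPCAM and CDH1 in none. KRT7 went the other way, from 502 ± 23.0 to 704 ± 149 FPKM (SD, n = 3 each), with every oeSTUB1 library above every oeNC library. KRT7 did not pass (log2 fold change 0.47, limma adjusted p = 0.0818), and it was called higher in 3 of the 16 other fits. KRT19, a keratin that usually marks bile duct cells, was at 0.374 to 0.529 FPKM in oeNC against 2.51 to 3.41 FPKM in oeSTUB1 libraries. CFTR was at or near 0 in both groups. Whether these levels bear out the label of a bile duct line was not tested. The 10 macrophage and leukocyte markers summed to 33.6 to 37.2 FPKM in oeNC against 28.2 to 30.3 FPKM in oeSTUB1 libraries, with 8 tested, of which CD68 was lower. The other 7 did not pass, and their log2 fold changes were all above 0, from 0.06 for CD14 to 1.01 for FCER1G, so that the list had a median of 0.51 while its sum, mostly CD68, was lower. PTPRC, which defines leukocytes, was at 0.0575 to 0.280 FPKM, and CD163 was at or near 0 in every library.

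Hepatocyte markers summed to 28.0 to 32.3 FPKM in oeNC against 14.9 to 22.6 FPKM in oeSTUB1 libraries, most of it APOH, and of 3 tested AHSG was lower and the other 2 did not pass. The AHSG call was lost in 5 of the 15 other fits that tested it, without each oeNC library, with no filter and with a prior that had no trend (largest limma adjusted p = 0.117). ALB, APOA1, APOB and TF were under 0.1 FPKM in every library. Fibroblast markers summed to 7.21 to 8.92 FPKM in oeNC against 7.64 to 10.6 FPKM in oeSTUB1 libraries, the 3 tested did not pass, and COL1A2 and DCN were at or near 0. Endothelial markers summed to 0.662 to 0.698 FPKM in oeNC against 1.30 to 1.34 FPKM in oeSTUB1 libraries, 1 of 2 tested, ESAM, was higher, and CDH5 and VWF were at or near 0.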

How the data were processed

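RNA-seq libraries of TFK1 cells were grouped by their labels into oeNC (n = 3) and oeSTUB1 (n = 3). An FPKM value per gene and library, for 23569 gene symbols, was deposited by the authors. The submitters' processing notes name fastp 0.20.1, HISAT2 2.1.0, HTSeq 0.11.2, R 3.2.0, DESeq2 1.22.2 and GRCh38.p13, with no role or order given. Strandedness and annotation release are not given in the sources used here. Value columns of no mapped sample numbered 0.

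Values were transformed to log2(FPKM + 0.1), genes averaging under 0.1 FPKM were set aside, and the other 15353 were fitted with limma 3.58.1 under R 4.3.3. The two-sided moderated test used a trended prior, with Benjamini-Hochberg adjustment over all of these genes, and a gene passed at an adjusted p-value under 0.05. Library totals were found first from the FPKM steps, and at these the gene length came out whole for 68.8% of the 8910 genes used. Whole fragments followed for 23567 genes of 23569, at the smallest length that made a gene's fragments whole in all libraries. Recomputed FPKM differed by at most 4.93e-06, which this choice of length makes small in advance. The totals and fragments were used for limma-voom and the comparison of replicates. The workflow was also run on simulated data with the same spread in every library. These held no library set apart like oeSTUB1 replicate 2, so that run gives no error rate for the real libraries. The 16 other fits were 2 pseudocounts, 2 filters, median-ratio, quantile and lowess scaling, a prior with no trend, a replicate block, limma-voom and leaving out each of the 6 libraries. Fold thresholds and ratios of means were also computed.

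The members and lists were chosen with earlier results of these data known. Genes named are STUB1, the 9 members, list genes that passed, otherwise up to 4 per list by mean FPKM, and the 2 nearest profiles of each member that passed. Others (CFP, C2, C4A, C4B, SAA2, EMG1 and genes of overlapping exons) were named after their values were seen. Some listed genes are not reported here and were left out of the list counts, though not of the fit. Marker lists covered biliary, hepatocyte, leukocyte, fibroblast and endothelial genes. Gene coordinates and shared exons are from GENCODE release 29 on GRCh38, and promoters from RefSeq on GRCh38.p14, processed with Python 3.11.15 (numpy 2.4.6, pandas 2.3.3, matplotlib 3.10.9).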

Additional observations from a re-analysis of the deposited data

How the results depend on the processing

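C1R, C1S, C3, CFB and CD59 were higher at an adjusted p-value under 0.05 in all 16 other fits, with log2 fold changes of 1.71 to 1.98, 0.94 to 1.06, 1.17 to 1.66, 2.06 to 2.54 and 0.84 to 0.98, and with an absolute log2 fold change over 1 as well, 3 of them passed. Leaving out 1 library gave 0 to 1 lower genes among the 9, the 1 being CFI without oeSTUB1 replicate 3. CD46 reversed to -0.027 under quantile normalization, and CD55, between -0.091 and 0.039 when 1 library was left out, reversed to 0.039 without oeSTUB1 replicate 1. Among other complement genes, 0 were higher by limma with a filter at a mean FPKM of 1, under which THBD, the 1 higher in every other fit, was not tested. Leaving out 1 library gave 1 to 4 lower, with 4 lower without oeSTUB1 replicate 2 and 1 lower without each oeNC library. Over all genes, 1675 were higher and 1647 lower with the lowess correction for gene length, and 429 and 369 with an absolute log2 fold change over 1. Leaving out 1 library gave 477 to 2274 higher and 456 to 1838 lower, from fewest without oeNC replicate 2 to most without oeSTUB1 replicate 2. The cause of these shifts was not tested. With a replicate block 1488 genes passed in place of 2088, and no call among the 9 changed. Deviations of same-numbered libraries correlated at -0.149, -0.0830 and 0.147, so the numbers were not taken to pair them. Not every library correlated best with its own number. Depth limits genes under 1 FPKM such as THBD. With 3 libraries a group the intervals are wide, among the 9 most of all for C3, followed by C5, CFB and CFI.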
